A study of Homo sapiens with 6 samples.

Results

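The spindle checkpoint holds a dividing cell in metaphase until every chromosome is attached to the spindle, and 10 genes of that checkpoint and of the switch that ends it were followed after Matrin3 knockdown. They were chosen by symbol, for their roles and with earlier results of these data known: the checkpoint kinases and scaffold proteins TTK, BUB1, BUB1B, BUB3, MAD1L1, MAD2L1 and KNTC1, the activators of the anaphase-promoting complex CDC20 and FZR1, and the protease separase, encoded by ESPL1. All 10 were found among the 58884 gene IDs measured, and all 10 were among the 14334 genes with enough reads to test. The cells were HCT116, a long-established line from a human colorectal carcinoma, and were transfected for 48 h with pooled siRNAs against Matrin3 (siMatrin3, 3 libraries) or a negative control siRNA (siCTRL, 3 libraries). Matrin3 is a nuclear RNA-binding protein, and the study asked how its loss touches the mitotic spindle. The methods describe biological triplicates of ribosome-depleted total RNA, while the labels name a stranded mRNA kit. Both groups are cultures of 1 cell line, and the p-values cover only the variation among them.

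At a kinetochore without microtubules, TTK recruits the BUB and MAD proteins, which assemble an inhibitor that binds CDC20. Once the last kinetochore is attached the inhibitor is taken apart, and CDC20 turns on the anaphase-promoting complex (APC/C), a ubiquitin ligase. The ligase destroys securin and cyclin B, which frees separase to cut cohesin, and FZR1 then keeps the ligase active as cells leave mitosis and through G1. Transcripts of many of these genes are known to peak in G2 and mitosis. In RNA from a whole culture, fewer cells in that phase and less RNA per cell cannot be told apart.

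The libraries held 6007630 to 7414040 estimated reads in siMatrin3 and 4556658 to 8400412 in siCTRL, and the lowest count of any of the 10 genes in a library was 100 (MAD1L1). MATR3, the targeted gene (ENSG00000015479), was at 72.4, 67.9 and 71.4 CPM (counts scaled to the TMM-adjusted library total) in siMatrin3 and at 363, 343 and 330.2 CPM in siCTRL, a log2 fold change of -2.29 ± 0.06 (SE; edgeR's quasi-likelihood test, adjusted p = 7.6e-11). A second, overlapping entry of that symbol on the same strand, ENSG00000280987, is not part of these values. Over the 6 libraries it held 375 counts, or 4.78% of those of the first. Of 8 epithelial markers 6 could be tested, and 2 of these had an edgeR adjusted p under 0.05 (33.3%, against 10.9% of all genes). They were KRT19 (log2 fold change 0.23, edgeR adjusted p = 0.0106) and EPCAM (0.28, adjusted p = 0.0183), both higher in siMatrin3. DESeq2 called 3 of the 6, against 7.29% of all genes, and limma-trend on log2(TPM + 1) called 0, against 1.04%. With effective lengths as an offset in edgeR the calls of KRT19 and EPCAM did not hold (adjusted p = 0.118 and 0.105). Of all genes that fit called 99 higher and 105 lower. Of 8 markers of fibroblasts, blood and endothelium only COL1A1 could be tested (log2 fold change -0.01, edgeR adjusted p = 0.967).

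None of the 10 genes passed the threshold of an adjusted p of 0.05 in the comparison of siMatrin3 with siCTRL. The same comparison called 10.9% of all genes tested, 5.68% higher and 5.18% lower in siMatrin3. The count for the 10 genes was 0 by edgeR, 0 by DESeq2 (7.29% of all genes) and 0 by limma-trend on log2(TPM + 1) (1.04% of all genes), and 2 of them (BUB3, KNTC1) had an unadjusted edgeR p under 0.05, against 25.1% of all genes. The fold changes were small, with 6 genes positive and 4 negative, a median of 0.02 and a median size of 0.12 on the log2 scale, against a median size of 0.16 over all genes tested. The 95% confidence intervals of the 10 genes together ran from -0.38 to 0.39 on the log2 scale, which is 0.769-fold to 1.31-fold, so larger changes lay outside the interval of every gene. Neither the labels nor the methods say that the replicate numbers pair the libraries. Comparisons of libraries by number below are thus descriptive, and no share over all genes was taken for them. With the replicate number as a block 2 of the 10 genes passed, against 15.8% of all genes: BUB3 higher (1 of 10, against 8.39% of all genes) and KNTC1 lower (1 of 10, against 7.37%). Neither kept that call in the blocked fit with effective lengths as an offset (0 of 10, against 1.68% of all genes) or in DESeq2 with the block (0 of 10, against 3.20%).

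**Figure D1:**
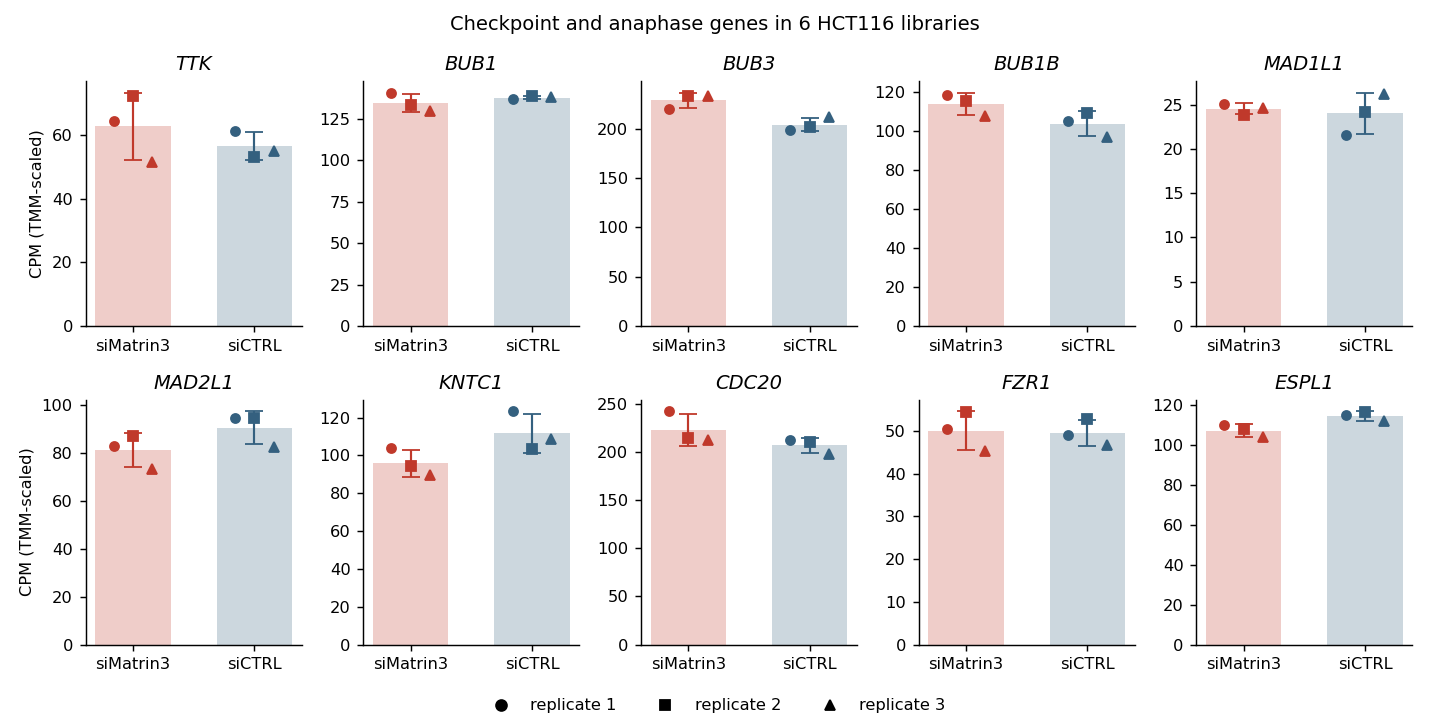
CPM of the 10 genes in each library, with siMatrin3 in red on the left of each panel and siCTRL in blue. Bars are group means from 0, error bars are SD (n = 3) and marker shapes give the replicate number. The groups do not overlap for BUB3, with all siMatrin3 libraries higher, or for ESPL1, with all siMatrin3 libraries lower.

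The groups did not overlap on CPM for 2 of the 10 genes, BUB3 and ESPL1, against 29.8% of all genes tested. Within siMatrin3, replicate 3 was the lowest library for 8 of the 10 genes and the highest for none, and replicate 1 was the highest for 6. The summed CPM of the 10 genes was 1159, 1137 and 1071 in siMatrin3 replicates 1 to 3, and 1118, 1106 and 1076 in siCTRL. A list of 12 genes known to peak in G2 and mitosis summed to 2458, 2552 and 2283 CPM in siMatrin3 and to 2423, 2342 and 2271 CPM in siCTRL, again with replicate 3 the lowest in each group. MKI67 alone gave a large part of these sums, at 947, 972 and 919 CPM in siMatrin3 and 890, 858 and 827 CPM in siCTRL. By flow cytometry, the study reported neither cell death nor a changed cell cycle in HCT116 after Matrin3 knockdown. Whether the share of dividing cells contributed to these sums was not tested.

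TTK (ENSG00000112742, chromosome 6, 80003887 to 80042527, plus strand, hg38), the kinase MPS1 that starts the checkpoint signal, was the most variable of the genes within siMatrin3. It was at 64.3, 72.3 and 51.3 CPM in siMatrin3 and at 61.3, 53.1 and 54.9 CPM in siCTRL. The siMatrin3 libraries lay on both sides of the siCTRL libraries, with a coefficient of variation of 16.9% in siMatrin3 and 7.58% in siCTRL. The log2 fold change was 0.16 ± 0.11 (SE, 95% interval -0.08 to 0.39; edgeR adjusted p = 0.41). It was 0.05 without siMatrin3 replicate 2 and 0.28 without siMatrin3 replicate 3, and passed the threshold in neither.

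BUB3, BUB1 and BUB1B act together: BUB3 is the adaptor that carries the kinase BUB1 and the pseudokinase BUBR1, encoded by BUB1B, to the kinetochore. BUB3 (ENSG00000154473, chromosome 10, 123154402 to 123170467, plus strand, 8 exons in the canonical transcript) was at 220.0, 233 and 233 CPM in siMatrin3 and at 199, 202 and 212 CPM in siCTRL. All siMatrin3 libraries were above all siCTRL libraries, and each was above the siCTRL library of its number. The log2 fold change was 0.16 ± 0.05 (SE, 95% interval 0.05 to 0.28), or 1.12-fold, with an edgeR adjusted p of 0.0698. With the replicate block it was 0.16 ± 0.05 and the adjusted p was 0.0283. The adjusted p was 0.109 by DESeq2, 0.257 by DESeq2 with the block and 0.0871 by edgeR with the block and effective lengths.

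BUB1B (ENSG00000156970, chromosome 15, 40161023 to 40221123, plus strand) was at 119, 115 and 108 CPM in siMatrin3 and at 105, 109 and 97.0 CPM in siCTRL. Every siMatrin3 library was above the siCTRL library of its number, but the groups overlapped, and the log2 fold change of 0.13 ± 0.07 (SE, 95% interval -0.01 to 0.28) did not pass edgeR's test (adjusted p = 0.244) and was 0.09 without siCTRL replicate 3. The gene shares its strand and its 3′ end with the read-through gene BUB1B-PAK6, whose counts came to 1.63% of those of BUB1B. The read-through counts were 27.09, 27.62 and 13.55 in siMatrin3 and 0 in every siCTRL library. The span of BUB1B also overlaps PAK6 by 3696 bases on the same strand, and PAK6 had counts equal to 27.4% of those of BUB1B. With the read-through counts added, all of them from siMatrin3, the log2 fold change of BUB1B was 0.18 (edgeR adjusted p = 0.12). BUB1 (ENSG00000169679, chromosome 2, 110637528 to 110678063, minus strand) was at 141, 133 and 129.8 CPM in siMatrin3 and at 137, 138 and 138 CPM in siCTRL. The siCTRL libraries were close together (coefficient of variation 0.573%) and lay inside the range of the siMatrin3 libraries (4.14%), with a log2 fold change of -0.03 ± 0.06 (SE, 95% interval -0.16 to 0.09; edgeR adjusted p = 0.771).

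MAD1L1 and MAD2L1 encode MAD1, which sits at unattached kinetochores, and MAD2, which MAD1 converts into the form that binds CDC20. MAD2L1 (ENSG00000164109, chromosome 4, 120055623 to 120066858, minus strand) was at 83.1, 87.2 and 73.3 CPM in siMatrin3 and at 94.5, 94.7 and 82.6 CPM in siCTRL. Each siMatrin3 library was below the siCTRL library of its number, while replicate 3 of siCTRL fell among the siMatrin3 values. The log2 fold change was -0.16 ± 0.08 (SE, 95% interval -0.33 to 0.01; edgeR adjusted p = 0.238, and 0.0913 with the replicate block), and it was -0.09 without siMatrin3 replicate 3. On TPM, which is also scaled by transcript length, the siMatrin3 libraries (44.4 to 50.7 TPM) all lay below the siCTRL libraries (51.9 to 60.5 TPM). Of all genes 23.9% were without overlap on TPM, made up of 18.4% of all genes lower and 5.48% higher in siMatrin3, and on the log2(TPM + 1) scale the median of all genes was itself at -0.09.

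MAD1L1 (ENSG00000002822, chromosome 7, 1815793 to 2233243, minus strand) had the fewest counts, at 25.1, 23.9 and 24.6 CPM in siMatrin3 and at 21.6, 24.2 and 26.2 CPM in siCTRL. The siMatrin3 libraries fell inside the siCTRL range, and the log2 fold change was 0.03 ± 0.10 (SE, 95% interval -0.20 to 0.25; edgeR adjusted p = 0.912). Its sign turned on the scale: it was -0.19 with effective lengths as an offset and -0.30 on log2(TPM + 1), neither past the threshold. The median of all genes on the latter scale was -0.09. The effective length, a mean over isoforms weighted by their estimated abundance, was 1092, 1451 and 1264 bases in siMatrin3 and 976, 1154 and 1097 bases in siCTRL (exact two-sided permutation test, p = 0.3). An unnamed gene on the same strand, ENSG00000286192, overlaps 417440 bases of the span of MAD1L1 and took reads equal to 38.4% of its counts. That gene was at 7.68, 8.01 and 15.9 CPM in siMatrin3 and at 10.8, 7.99 and 6.16 CPM in siCTRL. With its counts added MAD1L1 was at 0.12 (adjusted p = 0.518), so the level and sign for MAD1L1 are uncertain.

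KNTC1 (ENSG00000184445, chromosome 12, 122527246 to 122626396, plus strand, 64 exons) encodes ROD, which with ZW10 and ZWILCH forms the RZZ complex of the outer kinetochore and helps to bring MAD1 and MAD2 there. It was at 104, 94.2 and 89.8 CPM in siMatrin3 and at 123, 103 and 108 CPM in siCTRL. Each siMatrin3 library was below the siCTRL library of its number, with log2 differences of -0.25, -0.13 and -0.27 for replicates 1 to 3, although siMatrin3 replicate 1 overlapped siCTRL replicate 2. The log2 fold change was -0.21 ± 0.08 (SE, 95% interval -0.38 to -0.04), or 0.865-fold, with an edgeR adjusted p of 0.113. It was -0.14 without siCTRL replicate 1 and -0.36 on log2(TPM + 1), where the median of all genes was -0.09. With the replicate block it was -0.22 ± 0.06 and the adjusted p was 0.023. The adjusted p was 0.163 by DESeq2, 0.297 by DESeq2 with the block and 0.14 by edgeR with the block and effective lengths.

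The other RZZ subunits were not alike. ZW10 was at 45.7, 43.0 and 45.4 CPM in siMatrin3 and at 36.3, 32.8 and 34.0 CPM in siCTRL, and rose by 0.39 ± 0.08 on the log2 scale (SE; edgeR adjusted p = 0.00831). ZWILCH was at 31.4, 33.3 and 29.8 CPM in siMatrin3 and at 38.6, 36.1 and 34.0 CPM in siCTRL, with a log2 fold change of -0.20 ± 0.09 that did not pass (adjusted p = 0.175). ZW10 was thus above siCTRL in every siMatrin3 library, while KNTC1 and ZWILCH had negative values that did not pass edgeR's test without the block. The difference between the subunits was not tested. ZWINT, which helps to hold the complex at the kinetochore, was at 70.5, 68.8 and 70.0 CPM in siMatrin3 and at 86.7, 83.6 and 82.4 CPM in siCTRL, and was lower (-0.27 ± 0.06, adjusted p = 0.0163). ZW10 and ZWINT were the only genes past the threshold among 12 checkpoint and kinetochore partners, whose median was -0.15 (2 of 12, or 16.7%, against 10.9% of all genes). All genes tested had a median of -0.00065. DESeq2 called 2 of the 12, against 7.29% of all genes. With effective lengths as an offset neither ZW10 (log2 fold change 0.38, adjusted p = 0.114) nor ZWINT (-0.21, adjusted p = 0.306) passed. Few genes did so in that fit: of all 14334 tested, 99 were called higher and 105 lower. The kinase PLK1 passed with the replicate block and not without it (edgeR).

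**Figure D2:**
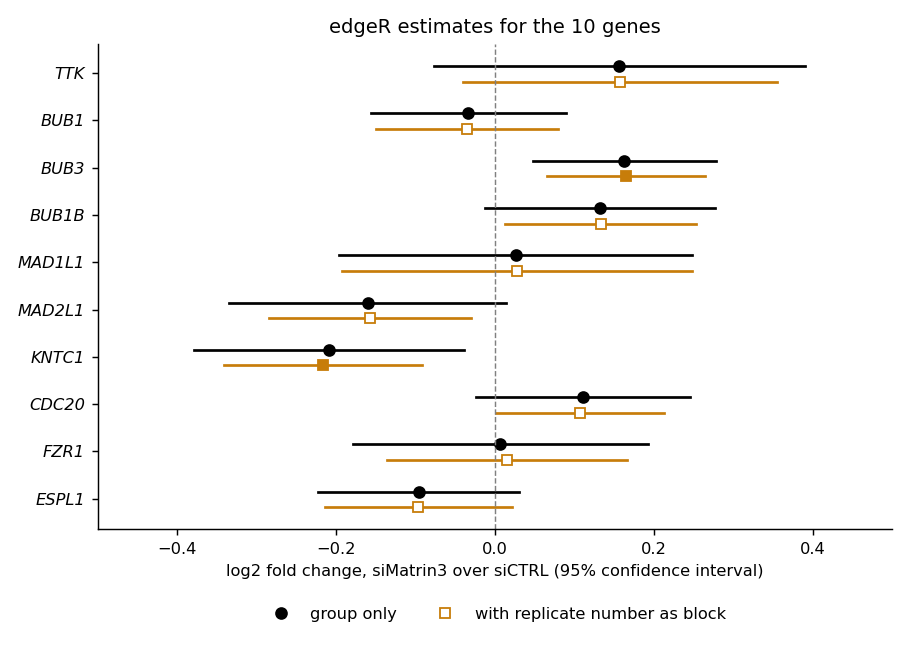
Log2 fold changes of siMatrin3 over siCTRL for the 10 genes, with 95% confidence intervals from edgeR, fitted on the groups alone (black) and with the replicate number as a block (orange; filled squares mark an adjusted p under 0.05). All black intervals lie between -0.38 and 0.39, and only BUB3 and KNTC1 have filled squares.

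CDC20 (ENSG00000117399, chromosome 1, 43358981 to 43363203, plus strand), both the target of the checkpoint and the activator of the APC/C at anaphase, was at 242, 215 and 212 CPM in siMatrin3 and at 212, 211 and 197 CPM in siCTRL. Each siMatrin3 library was above the siCTRL library of its number, but the groups overlapped, with replicate 3 of siMatrin3 just under replicate 1 of siCTRL. The log2 fold change was 0.11 ± 0.06 (SE, 95% interval -0.02 to 0.25; edgeR adjusted p = 0.297). It was 0.09 with effective lengths as an offset, and -0.02 on log2(TPM + 1), where the median of all genes was -0.09. Without siMatrin3 replicate 1 the edgeR value was 0.045. The processed copy CDC20P1 held counts equal to 1.89% of those of CDC20, and reads of the copy and the gene may be split by estimate.

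FZR1 (ENSG00000105325, chromosome 19, 3506311 to 3538334, plus strand), which encodes the late activator CDH1, was at 50.5, 54.3 and 45.2 CPM in siMatrin3 and at 48.98, 52.8 and 46.7 CPM in siCTRL. The groups interleaved. The log2 fold change was 0.01 ± 0.09 (SE, 95% interval -0.18 to 0.19; edgeR adjusted p = 0.976), and it was negative in 9 of 19 alternative analyses, so it has no stable sign. Its last 74 bases overlap the end of MFSD12 on the opposite strand.

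ESPL1 (ENSG00000135476, chromosome 12, 53268299 to 53293638, plus strand) encodes separase, the protease that cuts cohesin. It was at 110.0, 108 and 104 CPM in siMatrin3 and at 115, 117 and 112 CPM in siCTRL. All siMatrin3 libraries were below all siCTRL libraries, but the gap was small: the log2 fold change was -0.10 ± 0.06 (SE, 95% interval -0.22 to 0.03; edgeR adjusted p = 0.34). On TPM the groups overlapped (17.02 to 21.9 TPM in siMatrin3, 20.3 to 23.3 TPM in siCTRL). Of 5 genes that control separase and its substrate none passed edgeR's threshold, against 10.9% of all genes. The count was 0 by DESeq2 (7.29% of all genes) and 0 by limma-trend on log2(TPM + 1) (1.04% of all genes). PTTG1 and RAD21 had an unadjusted edgeR p under 0.05, as did 25.1% of all genes. PTTG1, the inhibitor securin, had the lowest p of the 5, at 59.8, 62.5 and 55.2 CPM in siMatrin3 and 47.7, 53.6 and 49.7 CPM in siCTRL (log2 fold change 0.22 ± 0.08, edgeR adjusted p = 0.0862, and 0.0383 with the replicate block).

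**Figure D3:**
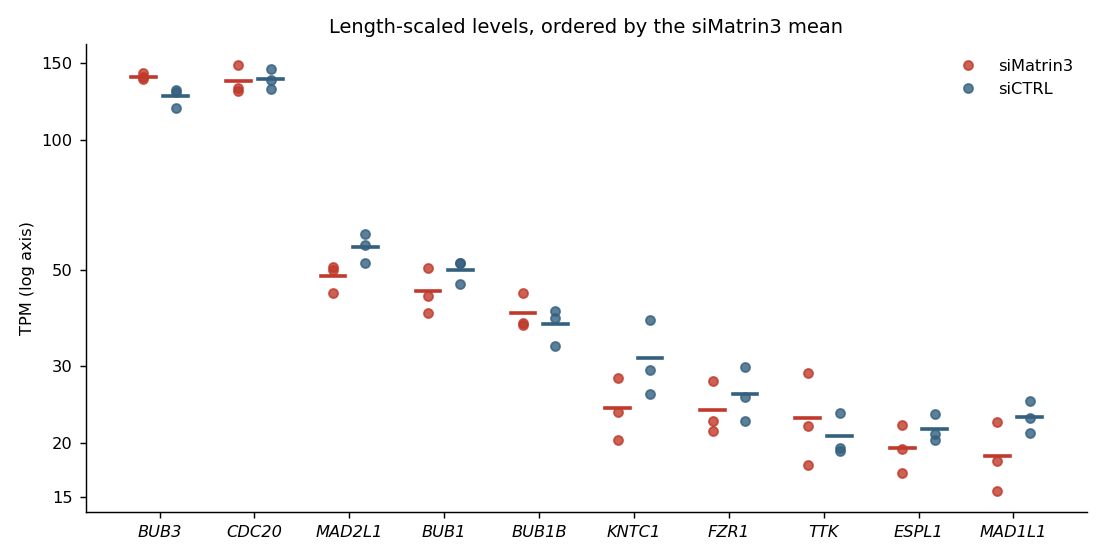
TPM of the 10 genes on a log axis, ordered by the siMatrin3 mean, with siMatrin3 (red) left of siCTRL (blue); points are libraries and bars are means (n = 3). BUB3 and CDC20 stand above 118 TPM in all libraries, and MAD1L1, ESPL1 and TTK lie between 15.5 and 28.9 TPM.

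Levels of different genes were set side by side on TPM alone. In siMatrin3 the order of the means was BUB3 (139.7 ± 2.22 TPM), CDC20 (136 ± 10.4), MAD2L1 (48.4 ± 3.51), BUB1 (44.7 ± 5.48), BUB1B (39.8 ± 3.94), KNTC1 (24.0 ± 3.97), FZR1 (23.8 ± 3.48), TTK (22.9 ± 5.63), ESPL1 (19.4 ± 2.45) and MAD1L1 (18.7 ± 3.42; SD, n = 3 each). Only the steps from CDC20 to MAD2L1 and from BUB1B to KNTC1 were free of overlap between neighbours. In siCTRL the first 5 genes were set apart step by step, with CDC20 (138 ± 7.65 TPM) above BUB3 (126 ± 6.53), MAD2L1 (56.5 ± 4.32), BUB1 (50.1 ± 3.08) and BUB1B (37.5 ± 3.54), and BUB1B overlapped KNTC1 (31.3 ± 6.46). The checkpoint adaptor and the APC/C activator were thus the most abundant of the 10 in both groups.

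Ratios between genes whose products work against or with each other were taken within each library on TPM. CDC20/FZR1, the 2 activators of the APC/C, was 5.34, 5.78 and 6.17 in siMatrin3 and 5.71, 4.57 and 5.83 in siCTRL. MAD2L1/MAD1L1 was 2.25, 3.27 and 2.44 in siMatrin3 and 2.66, 2.70 and 2.08 in siCTRL, and BUB1B/BUB3 was 0.322, 0.271 and 0.263 in siMatrin3 and 0.34, 0.302 and 0.257 in siCTRL. The groups overlapped for these ratios. BUB1/BUB3 was 0.368, 0.313 and 0.281 in siMatrin3 and 0.439, 0.362 and 0.398 in siCTRL, with an overlap of 1 library. ESPL1/PTTG1, separase over its inhibitor, was 0.241, 0.181 and 0.234 in siMatrin3 and 0.264, 0.245 and 0.277 in siCTRL. It was the only ratio whose groups did not overlap on TPM (on CPM those of BUB1/BUB3 did not overlap either, exact permutation p = 0.1), at a log2 difference of -0.27 and an exact two-sided permutation p of 0.1, the smallest that 3 against 3 libraries allow. Without siMatrin3 replicate 2 the difference was -0.14. Adjusted over the 5 ratios the p was 0.5, so no ratio could pass the threshold in this design.

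**Figure D4:**
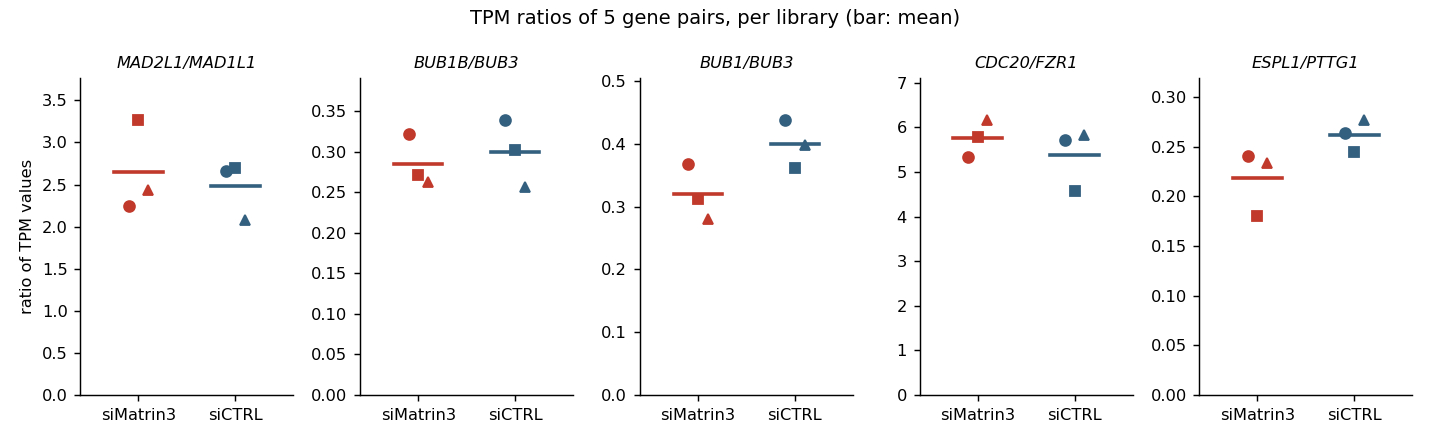
TPM ratios of 5 gene pairs in each library, on axes from 0, with siMatrin3 (red) left of siCTRL (blue); marker shapes give the replicate number (circle 1, square 2, triangle 3) and bars are means. The groups separate only for ESPL1/PTTG1, where siMatrin3 spans 0.181 to 0.241 and siCTRL 0.245 to 0.277.

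Effective lengths gave a view of isoform use that the gene totals do not hold. BUB3 was the only gene without overlap (1 of 10, against 9.44% of all genes tested), at 1548, 1586 and 1532 bases in siMatrin3 and 1731, 1586 and 1700 bases in siCTRL, where the second libraries differed by less than 1 base. The exact two-sided permutation p was 0.1 and, adjusted over the 10 genes, 0.8. Across libraries of both groups the highest effective length was 1.06 (CDC20) to 1.49 (MAD1L1) times the lowest.

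Genes of the APC/C were read from the same fit. Of 18 genes for its subunits, E2 enzymes and the inhibitor FBXO5, 3 rose and 2 fell (27.8%, against 10.9% of all genes), with a list median of 0.03 and no test of the list. CDC27, a subunit that receives the activators, was at 199, 193 and 207 CPM in siMatrin3 and at 154, 152 and 145 CPM in siCTRL (log2 fold change 0.41 ± 0.06, edgeR adjusted p = 0.000573). ANAPC13 (0.42 ± 0.10) and ANAPC5 (0.26 ± 0.06) also rose. ANAPC11, the catalytic RING subunit, was at 29.9, 28.9 and 28.4 CPM in siMatrin3 and at 41.6, 35.1 and 40.9 CPM in siCTRL, and fell by 0.42 on the log2 scale (SE 0.09, adjusted p = 0.0121). CDC23 also fell, by 0.24 (SE 0.07, adjusted p = 0.0452), and was named after its value was seen. ANAPC11 overlaps ALYREF, CDC23 overlaps KIF20A and ANAPC13 overlaps CEP63 on the opposite strand, and CDC27 overlaps 3 unnamed genes with counts, so reads there may be split by estimate. With effective lengths as an offset none of these 5 genes passed, in a fit that called 99 higher and 105 lower of all 14334 genes. On log2(TPM + 1) only ANAPC11 passed (limma-trend adjusted p = 0.043), where 1.04% of all genes were called. The log2 fold changes with the offset were 0.41 for CDC27, 0.31 for ANAPC13, 0.20 for ANAPC5, -0.42 for ANAPC11 and -0.40 for CDC23. DESeq2 called 3 of the 18, against 7.29% of all genes.

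**Figure D5:**
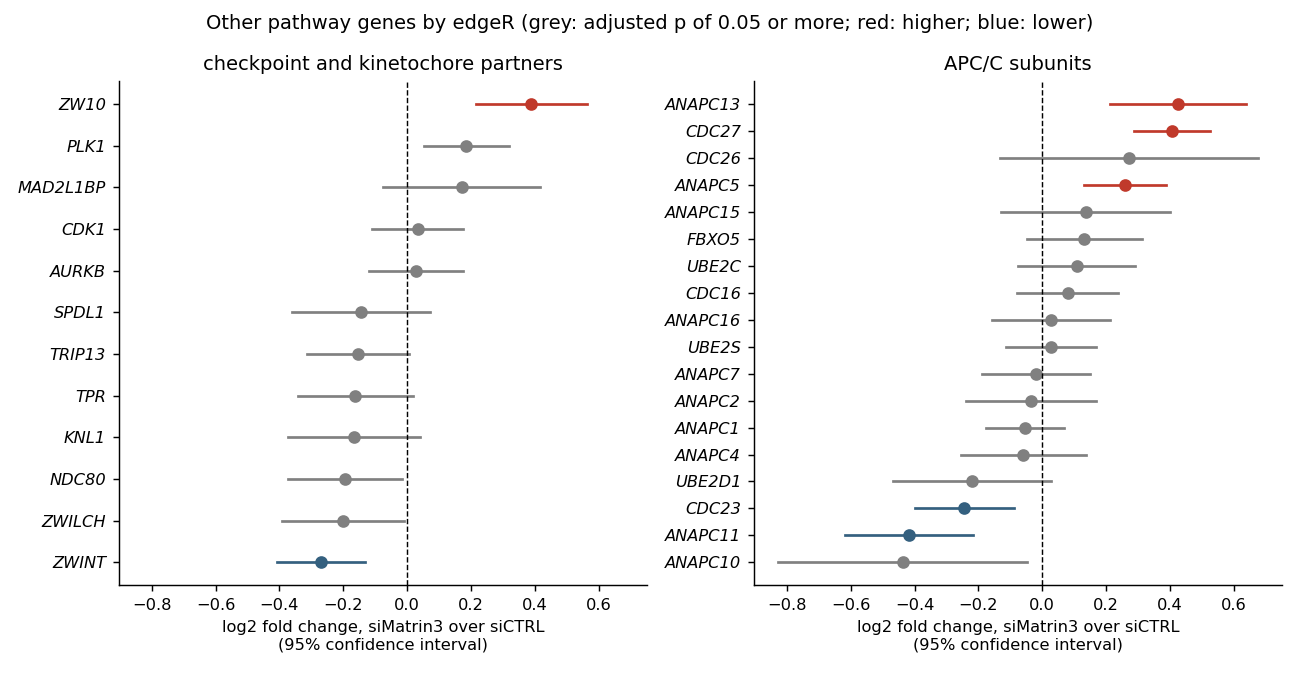
Log2 fold changes of siMatrin3 over siCTRL with 95% confidence intervals (edgeR) for 12 checkpoint and kinetochore partners (left) and 18 APC/C genes (right), each ordered by value. Red and blue mark genes past the threshold, higher or lower in siMatrin3: ZW10 and ZWINT on the left, and ANAPC13, CDC27, ANAPC5, CDC23 and ANAPC11 on the right.

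Among 20 genes whose proteins the APC/C destroys, only CDC25A, a phosphatase that activates CDK2 and CDK1, passed, and it fell by 0.30 (SE 0.09, adjusted p = 0.045). That is 5% of the list, against 10.9% of all genes, and the list median was 0.05. DESeq2 called 0 of the 20, against 7.29% of all genes. Of the 12 genes that peak in G2 and mitosis only CENPE, the kinetochore motor, passed (8.33%, against 10.9% of all genes). It was at 46.0, 51.9 and 32.9 CPM in siMatrin3 and at 69.3, 58.4 and 58.3 CPM in siCTRL, and fell by 0.50 (SE 0.13, adjusted p = 0.025). With effective lengths as an offset its log2 fold change was -0.81 and its adjusted p 0.0709. The list median was 0.06. The lists share CCNB1, TPX2, AURKA, KIF20A and HMMR, which did not pass.

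Promoters of G2 and mitosis genes often hold a cell cycle genes homology region, TTTGAA. In the RefSeq promoters (GRCh38.p14, 250 bases before to 50 after each start) TTTGAA stood on either strand in 15.2% of 35116 promoters and in 5 of the 7 genes with an entry: BUB1B, MAD2L1, CDC20, FZR1 and ESPL1. CDC20 held a further match on the opposite strand, 178 bases before its start. BUB1 and MAD1L1 had no match in this window, and BUB3, TTK and KNTC1 had no entry. The share of 15.2% counts promoters, while the 5 of 7 counts genes. Other motifs were searched as well. CCAAT stood on either strand in 4 of the 7 genes, against 34.6% of promoters. In 3′ untranslated regions of canonical transcripts ATTACAA or TTACAAA stood in 2 of 10 genes (BUB1B and BUB3), against 25.7% of 12136 regions. GAAGACT or AAGACTA stood in 0 of 10, against 18.4%. The BUB3 matches lay 4100 and 5413 bases after the stop codon. The mean effective length of BUB3 was 1555 bases in siMatrin3 and 1672 bases in siCTRL. Whether the BUB3 isoforms in these cells hold the matches was not tested. The matched stretches are shown for the 5 genes with a match to TTTGAA. Their fold changes, none past the threshold, were positive for BUB1B, CDC20 and FZR1 and negative for MAD2L1 and ESPL1. FZR1 and CDC20 turn negative on log2(TPM + 1), where the median of all genes was itself at -0.09. Whether any of these matches acts as a cell cycle genes homology region was not tested. TTTGAA is in capitals, 5′ to 3′ on the gene's strand. Distances are counted from the RefSeq start, which is 40161069 for BUB1B and 120066848 for MAD2L1 and differs there from the end of the GENCODE span. The first base of the match lies 23 bases before the start in BUB1B (chr15:40161034-40161063, plus strand), 24 after it in MAD2L1 (chr4:120066807-120066836, minus strand), 65 before it in CDC20 (chr1:43358904-43358933, plus strand), 226 before it in FZR1 (chr19:3506073-3506102, plus strand) and 31 before it in ESPL1 (chr12:53268256-53268285, plus strand).
BUB1B: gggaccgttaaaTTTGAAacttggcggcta
MAD2L1: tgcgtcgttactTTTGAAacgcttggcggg
CDC20: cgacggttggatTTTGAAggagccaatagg
FZR1: ttcctgtattgaTTTGAAtcgcgggagacg
ESPL1: cagccgcggataTTTGAAaggagggtctgg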

How the data were processed

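Gene tables of 6 libraries were used. Per the labels, the tools the authors ran were cutadapt, TopHat and RSEM, with hg19 as the genome build; the annotation release is not given in the sources used here, nor is the strand setting of the counting. The deposited expected counts are RSEM's estimated counts per gene, not normalized between libraries. RSEM had scaled the deposited TPM within each library. The authors' tables also hold effective lengths in bases (the transcript length less 49 bases, averaged over isoforms), which were used, and FPKM, which was not. The IDs were matched to GENCODE release 44 on hg38 (58472 of 58884, 99.3%), from which positions and overlaps were taken.

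Expected counts were rounded to whole numbers, kept by filterByExpr (minimum count 10, minimum total 15), scaled by TMM and tested with edgeR 4.0.16 (R 4.3.3) by its quasi-likelihood test, two-sided, with Benjamini-Hochberg adjustment over 14334 genes at 0.05. SE values were derived from the fold change and the F statistic. Replicates differed by more than sampling noise in every pair (a chi-square of 2.62 to 4.37 per degree of freedom). Deviations from the group mean were weakly correlated between libraries of the same replicate number (0.107, 0.104 and 0.157). All other pairs were negative, which taking deviations from the group mean largely forces. These correlations cannot settle whether the numbers pair the samples, so the replicate block was fitted only as an alternative. DESeq2 1.42.0, limma-trend 3.58.1 on log2(TPM + 1), other scalings and filters, an effective-length offset and leaving out each library were the other alternatives. The 2 fits that combine the block with effective lengths or with DESeq2, and the fit that adds the counts of overlapping genes and copies, were added after seeing the data. TPM ratios and effective lengths were compared by exact permutation tests. The scripts were tested on simulated data.

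The genes and lists were chosen with earlier results of these data known. Named genes are MATR3, the 10 genes and, of each other list, those past the threshold (the 4 with the lowest p where more than 4 pass, the 1 with the lowest p where none does); other genes named were chosen after their values were seen, among them ZWILCH and CDC23.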

Additional observations from a re-analysis of the deposited data

How the results depend on the processing

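Over 19 alternatives, BUB1, BUB1B, BUB3, ESPL1, KNTC1, MAD2L1 and TTK kept the sign of their fold change in all, and the replicate block alone moved the counts of the 10 genes past the threshold: 1 higher (BUB3, log2 0.16) and 1 lower (KNTC1, log2 -0.22), against 0 in each direction without it. Log2 values that turned sign, none past the threshold, were those of MAD1L1 (-0.19 with effective lengths, -0.30 on log2(TPM + 1), -0.31 on log2(TPM + 0.1), -0.21 with the block and effective lengths), CDC20 (-0.016 on both TPM scales) and FZR1 (-0.00041 with upper quartile scaling, -0.028 with effective lengths, -0.12 on both TPM scales, -0.024 with the block and effective lengths). Leaving out each library gave -0.032 to 0.088 for MAD1L1 and -0.054 to 0.071 for FZR1. The log2 difference of MAD2L1/MAD1L1 was -0.19 on CPM. Leaving out each library, it ran -0.071 to 0.20, that of BUB1B/BUB3 -0.17 to 0.028 and that of CDC20/FZR1 -0.0048 to 0.17, and log2 differences of effective length ran -0.020 to 0.066 for BUB1, -0.013 to 0.030 for CDC20, -0.076 to 0.11 for FZR1 and -0.056 to 0.10 for KNTC1. Over all genes 814 were called higher and 743 lower. The counts were 99 and 105 with effective lengths, 31 and 118 on log2(TPM + 1), 30 and 102 on log2(TPM + 0.1), 124 and 117 with the block and effective lengths, 271 and 187 by DESeq2 with the block, 572 and 473 by DESeq2, 1203 and 1056 with the replicate block, and 350 to 631 higher and 357 to 625 lower without 1 library, lowest without siCTRL replicate 3. The median of all genes moved to -0.09 and -0.10 on the TPM scales. The causes were not tested. Depth was lowest for MAD1L1, whose interval is among the widest.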

Other observations

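CDC20P1, a processed copy of CDC20, was at 3.43, 2.96 and 3.59 CPM in siMatrin3 and at 6.26, 4.35 and 4.23 CPM in siCTRL. The groups did not overlap on CPM, as for 29.8% of all genes tested. The copy held few estimated reads, 17.4 to 24.8 per library in siMatrin3 and 24.5 to 37.2 in siCTRL. CDC20 itself had a positive log2 fold change of 0.11 that did not pass edgeR's test. With the copy's counts added CDC20 was at 0.10 (edgeR adjusted p = 0.363). The copy was read after its values were seen, and reads that fit both the copy and CDC20 are assigned by estimate.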
